A study of Mus musculus with 12 samples.

Results

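The data described here are the levels of 9 genes of the interleukin-6 (IL-6) family and its STAT3 arm in mouse NIH 3T3 fibroblasts, taken from a table of 16475 gene probe sets measured on 12 Affymetrix arrays. The genes were chosen by name and by their place in the pathway: the ligand genes Il6, Il11 and Lif, the receptor genes Il6ra, Il6st, Osmr and Lifr, the transcription factor gene Stat3 and the feedback inhibitor gene Socs3. Each of the 9 has 1 probe set in the table, of 15780 that carry 1 gene symbol.

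The inducible clone 3T3-ind-IER2 #11 was set beside its parental NIH 3T3 line, and both were given the ligand RSL-1 (hereafter RSL) at 200 nM or its solvent DMSO and harvested after 24 h. The groups are therefore inducible cells with RSL, inducible cells with DMSO, parental cells with RSL and parental cells with DMSO, with 3 arrays in each. The inducible cells are 1 clone of NIH 3T3 cells that carries the RheoSwitch activator plasmid and a plasmid with a mouse Ier2 insert under an RSL-responsive promoter. The labels give the parental cells without the switch, and list G418 and hygromycin in the culture medium for all samples. Because only 1 clone was used, the clone and its construct cannot be told apart, and because the RNA came from whole dishes, fewer cells of a kind and less RNA per cell cannot be told apart.

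IL-6 binds its own receptor, encoded by Il6ra, and the pair recruits gp130, the shared signalling chain encoded by Il6st. IL-11, LIF and oncostatin M also signal through gp130, the last 2 together with the chains encoded by Lifr and Osmr. Receptor-bound JAK kinases then phosphorylate STAT3, which enters the nucleus and switches on genes that include Socs3, whose product binds gp130 and the kinases and damps the signal. Fibroblasts make IL-6, IL-11 and LIF on inflammatory stimulation, and IL-6 belongs to the factors secreted by senescent cells.

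The proximal promoters of Il6 and Socs3 are shown because these were the members that changed in the inducible cells given RSL. The sequences are RefSeq's (GRCm38.p6) and cover the 250 bases before each gene's start, 5′ to 3′ on the gene's own strand, Il6 at chr5:30012864-30013113 (plus strand) and Socs3 at chr11:117969367-117969616 (minus strand). Capitals mark matches to searched motifs: in Il6, an AP-1 motif, a C/EBP motif and an NF-kB motif, in that order, and in Socs3 a STAT motif.
Il6: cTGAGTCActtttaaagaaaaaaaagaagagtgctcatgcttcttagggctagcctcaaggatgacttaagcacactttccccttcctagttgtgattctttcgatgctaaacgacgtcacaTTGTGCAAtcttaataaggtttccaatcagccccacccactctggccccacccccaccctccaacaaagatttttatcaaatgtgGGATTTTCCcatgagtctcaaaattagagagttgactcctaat
Socs3: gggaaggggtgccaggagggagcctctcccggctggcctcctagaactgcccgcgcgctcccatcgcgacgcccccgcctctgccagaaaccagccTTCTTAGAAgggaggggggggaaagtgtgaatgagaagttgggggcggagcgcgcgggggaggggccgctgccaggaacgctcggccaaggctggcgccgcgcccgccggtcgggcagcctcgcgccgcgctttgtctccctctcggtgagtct

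All 9 members had a promoter entry, Il11 and Lifr with 2 each, and 5 motifs were searched on both strands of all 32851 mouse promoters of this length. The STAT motif TTCNNNGAA was found in Socs3, with its first base 154 and its last 146 bases before the start, and in no other member, and it occurs in 7.02% of all promoters. The NF-kB motif GGANTTTCC was found in Il6 alone among the members, 43 to 35 bases before the start, and occurs in 1.07% of promoters. The C/EBP motif TTGCNNAA (9.56% of promoters) matched Il6 on the other strand, 128 to 121 bases before the start. The AP-1 motif TGANTCA (6.75%) matched Il6 249 to 243 bases, Lif 228 to 222 bases and 1 Il11 promoter 98 to 92 bases before the start, and the CRE motif TGACGTCA (1.55%) matched no member. These matches describe letters in a window; binding was not measured.

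Ier2, the gene carried by the construct, gave 8.50, 8.48 and 8.66 on the log2 scale in the inducible arrays labelled RSL, against 9.07, 9.04 and 8.96 in the inducible arrays labelled DMSO. It was thus lower in the arrays labelled RSL, by a log2 fold change of -0.47 (limma adjusted p = 4.64e-05), which goes against the label, and the sources used here do not say whether the construct's transcript is read by this probe set. Whether the labels of the inducible RSL and DMSO arrays were exchanged was not tested. An exchange would turn the direction of every RSL effect in inducible cells given below, Il6 and Socs3 included. It would also change every difference of RSL effects and every comparison of the cell lines under DMSO given below, since these use the same inducible arrays. In parental cells, Ier2 gave 8.82, 8.74 and 8.67 on the arrays labelled RSL and 8.60, 8.61 and 8.53 on those labelled DMSO, a change of 0.17 (adjusted p = 0.366 in limma). On arrays labelled DMSO, Ier2 was higher in inducible than in parental cells by 0.45 (adjusted p = 3.24e-06 in limma). The inducible arrays labelled RSL averaged 8.55, beside 8.58 on the parental arrays labelled DMSO. Every RSL effect below is therefore that of arrays labelled RSL over arrays labelled DMSO. All 8 markers of fibroblasts, the labelled cell type, lay above the median of every array, while 6 of 7 macrophage markers and all 5 epithelial and all 5 endothelial markers lay below it. The exceptions were Csf1r among the macrophage markers, Retn among the 3 fat cell markers, which was above the median on all 12 arrays, and Cd3e among the 3 T cell markers, which was above it on all arrays but 1 of parental cells with DMSO. Correlations between arrays were 0.9981 to 0.9992 within a group and 0.9913 to 0.9932 between the cell lines.

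Among the ligands, Il6 was the one that rose in inducible cells given RSL. Its log2 levels were 7.05, 7.14 and 7.00 on the inducible arrays labelled RSL and 6.81, 6.73 and 6.65 on the inducible arrays labelled DMSO, so that the groups did not overlap. The log2 fold change was 0.33 (standard error 0.05, 95% interval 0.23 to 0.44, adjusted p = 0.000928 in limma), a 1.26-fold rise. In parental cells, Il6 gave 5.87, 5.84 and 5.87 with RSL and 5.84, 5.94 and 5.79 with DMSO. All 6 of these parental values lay below the first quartile of their array, which was 6.23 to 6.30, and no inducible value did. The RSL effect in parental cells was 0.00 (95% interval -0.10 to 0.10), read at this low level.

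Il6 also separated the cell lines without ligand. Under DMSO it averaged 6.73 ± 0.08 in inducible cells and 5.86 ± 0.08 in parental cells (SD, n = 3 each), a log2 fold change of 0.87 (95% interval 0.77 to 0.97, adjusted p = 6.34e-10 in limma). With the parental values under the first quartile, this can be read only as a minimum. The order of its levels was therefore inducible cells with RSL, inducible cells with DMSO, then both parental groups, which did not differ beyond their spread.

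Il11, which encodes a gp130 cytokine of stromal cells and fibrosis, did not pass for RSL in either cell line. It gave 7.18, 7.14 and 7.20 in inducible cells with RSL and 7.26, 7.15 and 7.19 in inducible cells with DMSO, an effect of -0.03 (95% interval -0.10 to 0.04). In parental cells it gave 6.78, 6.78 and 6.74 with RSL and 6.72, 6.69 and 6.69 with DMSO, an effect of 0.07 (adjusted p = 0.525 in limma), although these arrays did not overlap. Like Il6 it was higher in the clone, by 0.50 under DMSO (95% interval 0.43 to 0.57, adjusted p = 1.12e-08 in limma), or 1.42-fold.

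Lif, the leukemia inhibitory factor gene, varied least between groups of the ligand genes. Its levels were 7.17, 7.14 and 7.22 in inducible cells with RSL and 7.09, 7.16 and 7.09 in inducible cells with DMSO. In parental cells they were 7.04, 7.05 and 6.99 with RSL and 7.05, 7.01 and 6.92 with DMSO. The RSL effects of 0.06 (95% interval -0.02 to 0.15) and 0.03 (95% interval -0.06 to 0.11) did not pass. Under DMSO it was higher in inducible than in parental cells by 0.12 (adjusted p = 0.0332 in limma), and this call was lost without inducible DMSO replicate 1 (adjusted p = 0.0503) or 2 (0.154) and without parental DMSO replicate 2 (0.0521) or 3 (0.186).

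**Figure D1:**
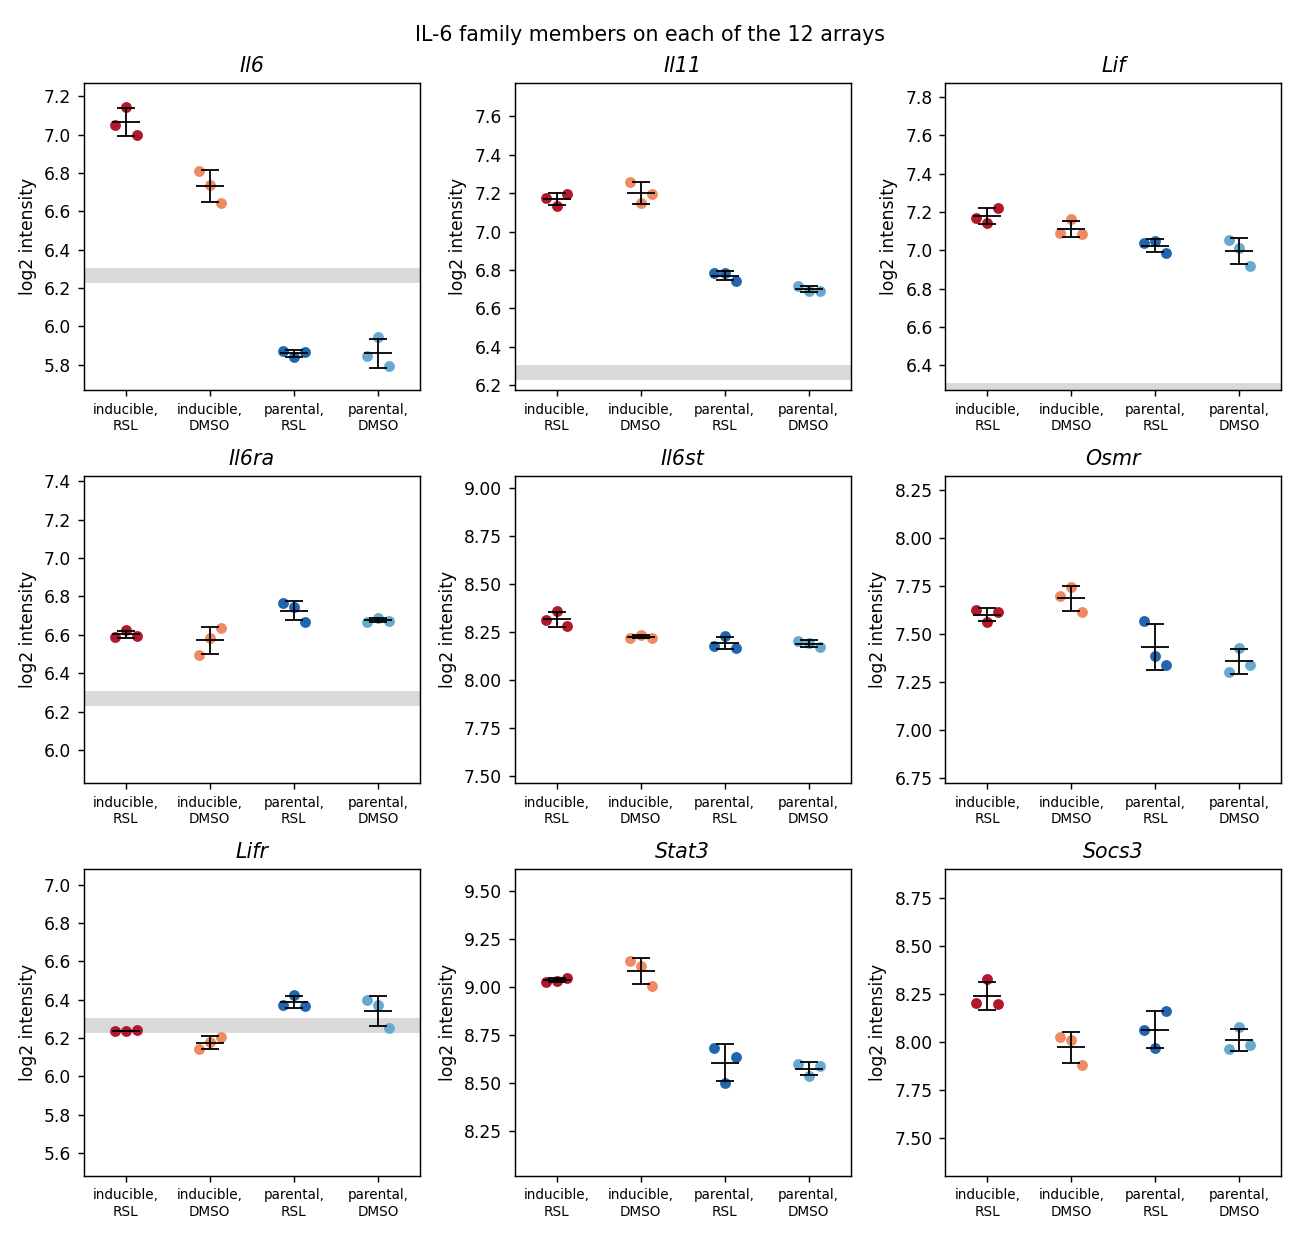
Log2 intensity of the 9 members on each of the 12 arrays, 1 panel a gene, with axes of equal width centred on each gene's own levels. Points are arrays, bars the mean ± SD of 3 arrays, and the grey band the range of the arrays' first quartiles (6.23 to 6.30). Il6 lies above the band in inducible cells and below it in parental cells. The means of Stat3, Il11 and Osmr are higher in both inducible groups. Osmr overlaps with RSL, as parental replicate 1 (7.57) lies above inducible replicate 2 (7.56).

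Of the receptor genes, none passed for RSL in either cell line. Il6st, the gp130 gene, gave 8.31, 8.36 and 8.28 in inducible cells with RSL and 8.22, 8.24 and 8.22 in inducible cells with DMSO. The arrays did not overlap, and the effect of 0.09 (95% interval 0.02 to 0.16) had an unadjusted p of 0.0119 in limma but did not pass after adjustment (adjusted p = 0.201). In parental cells Il6st gave 8.18, 8.23 and 8.17 with RSL and 8.21, 8.19 and 8.17 with DMSO, an effect of 0.00 (95% interval -0.06 to 0.07). It did not differ between the cell lines under DMSO beyond the test (0.03, 95% interval -0.03 to 0.10), although the arrays did not overlap there.

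Il6ra, which encodes the IL-6-binding chain, gave 6.59, 6.62 and 6.60 in inducible cells with RSL and 6.49, 6.58 and 6.64 in inducible cells with DMSO. In parental cells it gave 6.76, 6.74 and 6.67 with RSL and 6.67, 6.69 and 6.67 with DMSO. The RSL effects were 0.03 (95% interval -0.05 to 0.11) and 0.05 (95% interval -0.03 to 0.13), and neither passed. Under DMSO it was lower in inducible than in parental cells, by -0.11 (adjusted p = 0.046 in limma), and leaving out any array but inducible DMSO replicate 3 and parental RSL replicates 1 and 3 ended that call (adjusted p up to 0.249).

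Osmr, the oncostatin M receptor gene, gave 7.63, 7.56 and 7.62 in inducible cells with RSL and 7.70, 7.75 and 7.62 in inducible cells with DMSO. Parental cells gave 7.57, 7.39 and 7.34 with RSL and 7.31, 7.43 and 7.34 with DMSO, the first of these RSL arrays standing above the other 5. The RSL effects were -0.09 (95% interval -0.20 to 0.03) in inducible and 0.07 (95% interval -0.04 to 0.19) in parental cells. Neither passed, whereas the clone was higher than parental cells under DMSO by 0.33 (95% interval 0.22 to 0.44, adjusted p = 0.00013 in limma), or 1.26-fold.

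Lifr, which encodes the LIF receptor chain, was near the floor of the arrays. It gave 6.24 on all 3 inducible arrays with RSL and 6.14, 6.18 and 6.21 on the inducible arrays with DMSO, all 6 below their array's first quartile. Parental cells gave 6.37, 6.42 and 6.36 with RSL and 6.40, 6.37 and 6.25 with DMSO. The RSL effect in inducible cells was 0.06 (95% interval -0.02 to 0.14), without overlap between the arrays but not past the test (adjusted p = 0.607 in limma), and in parental cells it was 0.04 (95% interval -0.04 to 0.12). Lifr was lower in inducible than in parental cells under DMSO, by -0.17 (95% interval -0.25 to -0.09, adjusted p = 0.00274 in limma), which, with the inducible values under the first quartile, can also be read only as a minimum.

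Stat3 itself did not pass for RSL in either cell line. It gave 9.03, 9.03 and 9.05 in inducible cells with RSL and 9.132, 9.109 and 9.004 in inducible cells with DMSO, an effect of -0.05 (95% interval -0.14 to 0.05). In parental cells it gave 8.68, 8.50 and 8.64 with RSL and 8.60, 8.53 and 8.59 with DMSO, an effect of 0.03 (95% interval -0.06 to 0.13). Under DMSO it was higher in inducible cells than in parental cells by 0.51 (95% interval 0.41 to 0.60, adjusted p = 2.13e-07 in limma), or 1.42-fold. The arrays measure the transcript, so phosphorylation of STAT3, on which its activity depends, is not part of these data.

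Socs3 rose with RSL in inducible cells. It gave 8.20, 8.33 and 8.20 with RSL and 8.03, 8.01 and 7.88 with DMSO in inducible cells, without overlap. The log2 fold change was 0.27 (standard error 0.05, 95% interval 0.16 to 0.38, adjusted p = 0.0101 in limma), or 1.20-fold. The call was lost without inducible RSL replicate 2, its highest array (0.23, adjusted p = 0.058), and without inducible DMSO replicate 3, its lowest (0.22, adjusted p = 0.0602). In parental cells Socs3 gave 8.06, 7.97 and 8.16 with RSL and 7.96, 8.07 and 7.98 with DMSO, groups that overlapped, with an effect of 0.05 (95% interval -0.06 to 0.17). Unlike Il6 and Stat3, it was not called between the cell lines under DMSO (-0.04, 95% interval -0.15 to 0.08, adjusted p = 0.694 in limma).

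Counted over the members, 2 of 9 passed for RSL in inducible cells, Il6 and Socs3, both higher, where 2.54% of all probe sets passed in either direction 1.32% were higher and 1.21% lower. At an unadjusted p under 0.05, 3 of 9 passed, Il6, Socs3 and Il6st, beside 12.3% of all probe sets. The arrays of 4 members (Il6, Il6st, Lifr and Socs3) did not overlap and were higher with RSL, against 9.34% of all probe sets. The median of the 9 effects was 0.06, beside 0.00 over all probe sets. In parental cells 0 of 9 passed in limma, and 0 had an unadjusted p under 0.05, where 0.0303% and 9.71% of all probe sets did. Arrays that did not overlap and were higher with RSL were found for 1 member, Il11, beside 7.12% of all probe sets. A one-way analysis of the 6 parental arrays had 1 member, Il11, at a nominal p under 0.05 and 0 after Benjamini-Hochberg adjustment. With 3 arrays against 3, an exact permutation test cannot give a two-sided p under 0.1, and that was its value for Il6 and for Socs3 in inducible cells.

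The difference between the RSL effects of the cell lines was tested directly, and 1 of 9 members passed, where 0.662% of all probe sets did. For Il6 the RSL effect of inducible minus parental cells was 0.33 (95% interval 0.19 to 0.48, adjusted p = 0.0304 in limma). All 6 parental Il6 values lay below the first quartile of their arrays, where a response may not be readable, so this difference does not establish that the effect on Il6 is larger in the clone. That call was kept only without inducible RSL replicate 3, inducible DMSO replicate 1, parental DMSO replicate 1 or parental DMSO replicate 3, and was lost without any of the other 8 arrays (adjusted p 0.0623 to 0.101), with the difference between 0.29 and 0.38 throughout. For Socs3 the difference was 0.21 (95% interval 0.05 to 0.37), with an unadjusted p of 0.0117 and an adjusted p of 0.318 in limma, so that a difference between the cell lines was not established for it. Osmr, at -0.16 (unadjusted p = 0.0458, adjusted p = 0.537 in limma), was the third member under 0.05 before adjustment, a level reached by 9.07% of all probe sets. The RSL effects and their difference use the same arrays.

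**Figure D2:**
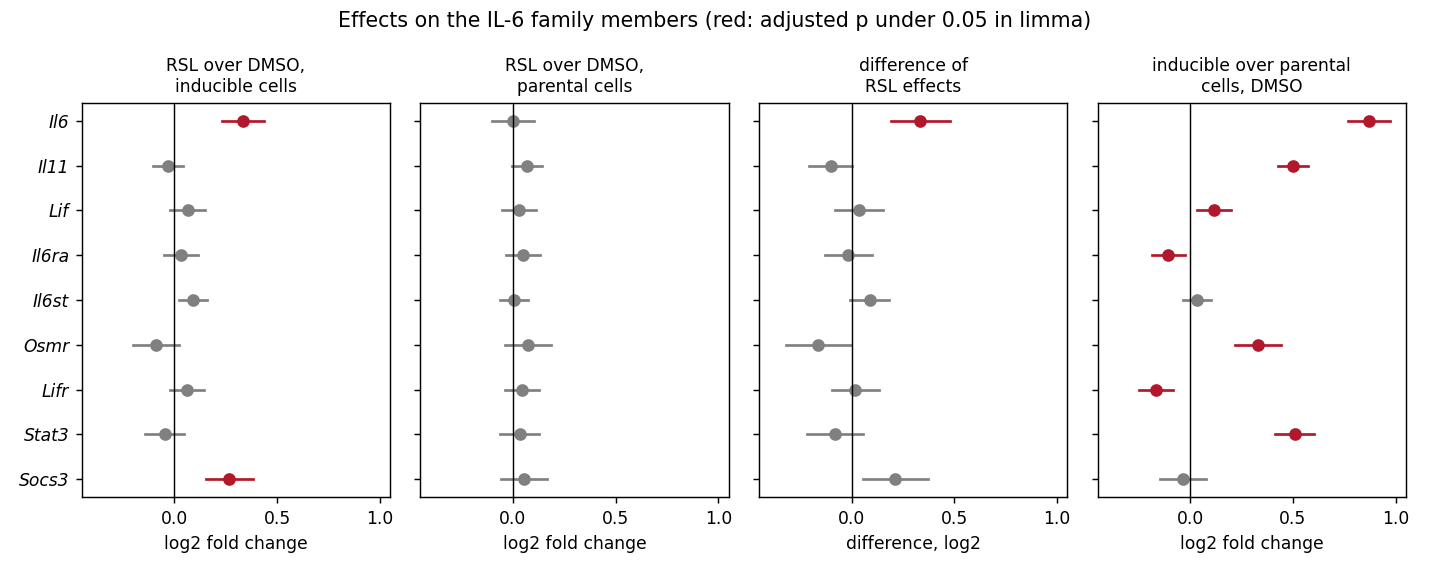
Log2 fold changes of the 9 members in 4 comparisons, with 95% intervals from limma; red marks an adjusted p under 0.05. In inducible cells Il6 (0.33) and Socs3 (0.27) stand right of 0 for RSL, no member does so in red in parental cells, and the comparison of the cell lines has 7 members in red.

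Without ligand, the clone and the parental cells differed in 7 of 9 members, 5 higher and 2 lower in inducible cells, where 29.7% of all probe sets passed, 15.2% higher and 14.5% lower. The arrays did not overlap for 6 members that were higher and 2 that were lower in inducible cells, against 20% and 20.2% of all probe sets. Of these, Il6st was not called. The higher members called were Il6, Il11, Stat3, Osmr and Lif, and the lower ones Lifr and Il6ra. The median over the members was 0.12, beside -0.01 over all probe sets. This comparison shares the inducible DMSO arrays with the RSL effect in inducible cells, so the values are given side by side only: Stat3, Il11 and Osmr, at 0.51, 0.50 and 0.33 for the clone, had RSL effects of -0.05, -0.03 and -0.09 within it.

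Over the 12 arrays, each array taken as its deviation from its group mean, Il6 and Socs3 had the highest correlation of the 36 pairs of members (r = 0.776). By the same measure, genes outside the members reached higher values, such as Sfpq with Il6 (0.956) and Adipor1 with Socs3 (0.957). The deviations are small and share the arrays' normalization, and the values are given as a description. Inducible RSL replicate 2 was the highest array for both genes and inducible DMSO replicate 3 was the lowest inducible array for both.

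**Figure D3:**
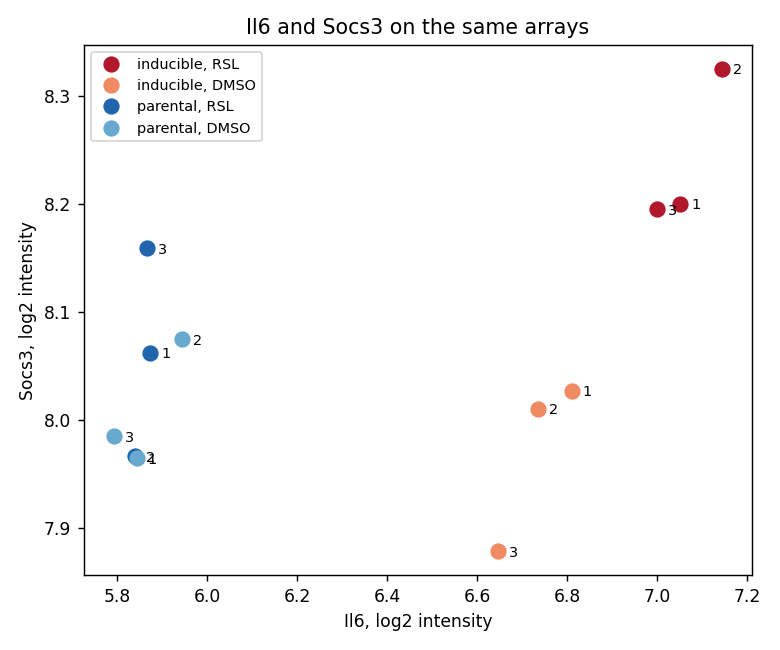
Il6 (x axis) against Socs3 (y axis), log2 intensity, 1 point an array, with replicate numbers. The 3 inducible arrays labelled RSL lie highest on both axes, from 7.00 to 7.14 for Il6 and from 8.20 to 8.33 for Socs3, while the parental arrays lie below 6 for Il6 and overlap the inducible DMSO arrays for Socs3.

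The genes whose levels over the 12 arrays were most like those of Il6, by Pearson correlation, were Ptx3 (0.998), Adamts5 (0.995) and Nrp1 (0.995). For Il11 they were Txnip, Gsto2 and Fetub (all 0.994), and for Stat3 Rnase4 (0.992), Nucb1 (0.991) and Baiap2l1 (0.99). These 3 members all stepped between the cell lines, and the correlations include that step. For Socs3, which was not called between the cell lines, the highest values were 0.945 for Mrps28, 0.92 for Myo1d and 0.917 for Rhebl1. Osmr was most like Irak2 (0.975), Naxd (0.955) and Tpst2 (0.955), Lif like Slc27a1 (0.953), Mark1 (0.94) and Rnf167 (0.939), Il6ra like Arhgap42 (0.956), Acp2 (0.943) and Ciao3 (0.942), and Lifr like Cnot10 (0.955), Anapc5 (0.949) and Saal1 (0.946). Osmr, Lif, Il6ra and Lifr were also called between the cell lines under DMSO, so their correlations include that step too.

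Other genes of the family were read from a list of 12 ligand and receptor genes, of which 7 had a probe set (Osm, Ctf1, Clcf1, Ebi3, Cntfr, Il27ra and Il31ra). With RSL in inducible cells 1 of 7 fell and none rose, where 2.54% of all probe sets passed and 1.21% were lower. Clcf1, which encodes cardiotrophin-like cytokine factor 1, gave 8.09, 7.99 and 8.13 in inducible cells with RSL and 8.25, 8.22 and 8.24 in inducible cells with DMSO, a change of -0.16 (standard error 0.04, adjusted p = 0.022 in limma). Its parental arrays gave 8.01, 8.01 and 7.99 with RSL and 7.92, 7.92 and 7.96 with DMSO, and the difference between the cell lines was -0.24 (adjusted p = 0.0423 in limma). Clcf1 thus fell in the cells in which Il6 rose. Its call in inducible cells was lost without inducible RSL replicate 2 (adjusted p = 0.101) and without inducible DMSO replicate 1 (0.0974), 2 (0.062) or 3 (0.0686), and the call of the difference was lost without any array but inducible RSL replicate 3 (adjusted p up to 0.116).

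The other family members did not pass for RSL: Ctf1, the cardiotrophin 1 gene, was at -0.10 (adjusted p = 0.201 in limma), Cntfr at 0.08 and Osm at 0.07. Under DMSO the clone was higher than parental cells for Clcf1 (0.30, adjusted p = 6.86e-06 in limma) and lower for Ctf1 (-0.12, adjusted p = 0.0183 in limma), whose call was lost without inducible DMSO replicate 1 (0.116) or parental DMSO replicate 2 (0.054) or 3 (0.0612). The median of the list was -0.03 for RSL in inducible cells and -0.02 for the clone.

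Of 25 genes of JAK-STAT signalling and its feedback, 23 had a probe set, and for RSL 0 passed in limma in either cell line. At an unadjusted p under 0.05 there were 6 in inducible cells and 0 in parental cells, beside 12.3% and 9.71% of all probe sets. A one-way analysis of the 6 inducible arrays had 4 higher and 4 lower at a nominal p under 0.05, where 1913 of all 16475 probe sets were. The smallest p-values in inducible cells belonged to Stat2, an interferon signalling factor (0.12, adjusted p = 0.106), and to the inhibitor genes Socs5 (-0.10, adjusted p = 0.13), Socs1 (-0.10, adjusted p = 0.197) and Socs6 (-0.08, adjusted p = 0.259), all from limma. Socs3 thus passed for RSL in inducible cells, a call lost without either of 2 single arrays. Socs1, Socs4, Socs5, Socs6, Socs7 and Cish (-0.06, adjusted p = 0.687 in limma) did not pass.

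Between the cell lines under DMSO, 12 of these 23 genes passed, 9 higher and 3 lower in inducible cells (52.2%, beside 29.7% of all probe sets). Socs5 had the largest change of the list: it gave 9.21, 9.22 and 9.18 in inducible cells with DMSO and 9.84, 9.89 and 9.89 in parental cells with DMSO, -0.67 on the log2 scale (adjusted p = 1.32e-10 in limma). Stat5a, a sister transcription factor of STAT3, was higher by 0.38 (adjusted p = 1e-06 in limma), and Jak1, the kinase gene most used by gp130, by 0.29 (adjusted p = 0.000113 in limma). The other higher genes were Socs7, Adam10, Ptpn11, Ptpn1, Gab1, Grb2 and Jak2, between 0.10 and 0.17, and the other lower ones Ptpn2 (-0.17) and Jak3 (-0.11). The call of Grb2 was lost without parental DMSO replicate 3 (adjusted p = 0.0564), that of Ptpn2 without parental DMSO replicate 2 (0.0509), and that of Jak2 without inducible DMSO replicate 1 (0.0938) or 2 (0.101) or parental DMSO replicate 1 (0.066) or 3 (0.0798). With 1 array left out, Jak3 was called only without parental RSL replicate 1 or 3 or parental DMSO replicate 2 (adjusted p up to 0.166 otherwise), and Adam10 only without inducible RSL replicate 3, inducible DMSO replicate 2 or parental RSL replicate 2 or 3 (up to 0.232 otherwise).

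All 24 genes of a textbook list of STAT3 targets had a probe set, and for RSL in inducible cells 2 fell and 0 rose in limma (8.33%, beside 2.54% of all probe sets). Mcl1, an anti-apoptotic relative of Bcl2, gave 9.43, 9.46 and 9.38 in inducible cells with RSL and 9.67, 9.62 and 9.61 in inducible cells with DMSO, -0.21 on the log2 scale (adjusted p = 0.00213 in limma). Junb, an AP-1 gene, gave 7.44, 7.45 and 7.59 with RSL and 7.72, 7.68 and 7.67 with DMSO in inducible cells, -0.20 (adjusted p = 0.00983 in limma). Both thus moved opposite to Socs3, which is itself a target of STAT3. Ccnd1, the cyclin D1 gene, was at -0.11 (adjusted p = 0.0519 in limma) and Timp1, a metalloproteinase inhibitor gene, at -0.11 (adjusted p = 0.224 in limma), and the list's median was 0.00.

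The call of Junb was lost without inducible RSL replicate 1 (adjusted p = 0.068) or 2 (0.0536) or inducible DMSO replicate 1 (0.066), and that of Mcl1 held without each array in turn. The RSL effect on Mcl1 differed between the cell lines by -0.22 (adjusted p = 0.047 in limma), a call that was lost without any 1 of the 12 arrays (adjusted p up to 0.133). That difference was not called for Junb (-0.22, adjusted p = 0.0957 in limma) or for Cebpd (0.22, adjusted p = 0.245 in limma). In parental cells 0 of 24 targets passed for RSL in limma, and 3 had an unadjusted p under 0.05, beside 0.0303% and 9.71% of all probe sets, so that the second count is near its background.

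Between the cell lines under DMSO, 14 of the 24 targets passed, 9 higher and 5 lower in inducible cells (58.3%, beside 29.7% of all probe sets). Cebpb, the acute-phase transcription factor gene, was higher by 0.42 (adjusted p = 1.96e-06 in limma) and Fgl2, which encodes a fibrinogen-like protein, by 0.37 (adjusted p = 3.37e-07 in limma). All parental values of Fgl2 and that of inducible DMSO replicate 3 were under the first quartile of their arrays, so its difference can be read only as a minimum. Il4ra, the interleukin-4 receptor gene, was lower, at -0.31 (adjusted p = 8.42e-06 in limma), as was Ifitm3, an interferon-induced antiviral gene, at -0.25 (adjusted p = 5.76e-06 in limma). The remaining higher genes were Saa3 (0.37), Timp1 (0.31), Hif1a (0.30), Fosl2 (0.26), Junb (0.20), Bcl2l1 (0.15) and Vegfa (0.14), and the remaining lower ones Ccnd1 (-0.15), Bcl6 (-0.13) and Lcn2 (-0.11), whose call was lost without inducible DMSO replicate 2 (adjusted p = 0.0539). The targets thus passed in both directions between the cell lines. Stat3 itself was higher in the clone, and whether its level bears on these targets was not tested. For the lists as for the members, this comparison shares the inducible DMSO arrays with the RSL effect in inducible cells. The RSL effect of -0.20 on Junb and its clone difference of 0.20 both rest on those arrays.

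**Figure D4:**
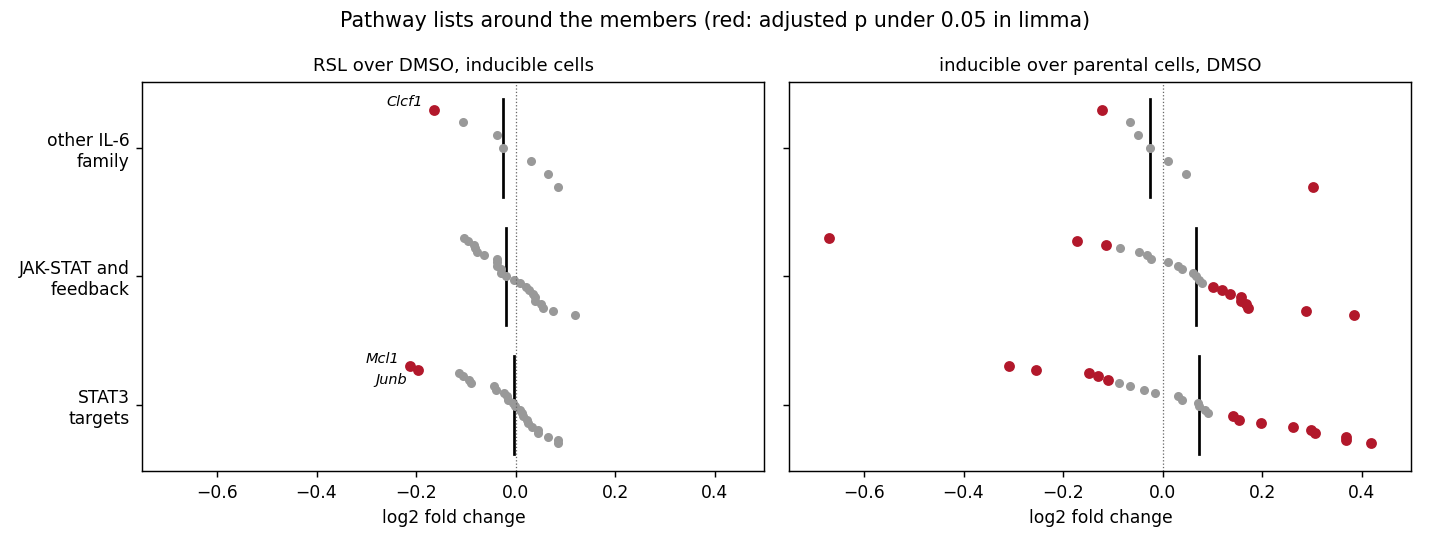
Log2 fold changes of the genes in the 3 pathway lists, for RSL in inducible cells (left) and for inducible over parental cells under DMSO (right); each point is a gene, the vertical bar the median of its list, and red an adjusted p under 0.05 in limma. For RSL the red points are Clcf1, Mcl1 and Junb, all left of 0, and for the clone red points lie on both sides.

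Macrophages and other cells that make IL-6 were read through their markers beside the Il6 result. In inducible cells given RSL, 0 of 7 macrophage, 0 of 5 epithelial, 0 of 5 endothelial, 0 of 3 fat cell, 0 of 3 T cell and 0 of 8 fibroblast markers passed in limma, with 1, 1, 0, 0, 0 and 2 at an unadjusted p under 0.05 (2.54% of all probe sets passed, and 12.3% were under 0.05 unadjusted). The mean level of the macrophage markers on an array was 6.29 to 6.36 with RSL and 6.27 to 6.30 with DMSO in inducible cells, and 3 of 7 with RSL and 4 of 7 with DMSO were under the first quartile on all their arrays. Between the cell lines under DMSO, where Il6 was higher in the clone, 7 of 8 fibroblast markers passed (29.7% of all probe sets did), among them Col1a1 at 0.73 (adjusted p = 1.23e-07) and Pdgfrb at -0.67 (adjusted p = 1.26e-07), both from limma. Of the other markers, Cd68 (0.40) and Cdh1 (0.17) were higher and Csf1r (-0.20) and Vwf (-0.09) lower there. The values of Cdh1 and Vwf were below the first quartile on every array, so their differences are between readings near the floor. The part of these differences in the members' levels was not tested.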

How the data were processed

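RNA of 12 samples was hybridised to Affymetrix Mm430_2.0 arrays, 3 for each of 4 groups. The deposited log2 values were made by the authors with a Custom CDF (version 10, Entrez-based definitions), RMA background correction and quantile normalization, per the methods and the labels. Base 2 was inferred from their range (5.19 to 14.32); the step that summarised probes is not given in the sources at hand. The labels name Trizol and the methods another reagent for RNA extraction.

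Of 16539 probe sets, 64 hybridization controls were left out and 16475 were tested without a filter. Gene symbols came from the annotation given for the probe sets, in which 695 have none. Some genes of the table are not reported here. All 12 arrays entered a model of 4 group means in limma 3.58.1 (R 4.3.3), with 8 residual degrees of freedom before moderation, and gave 4 comparisons. P-values were adjusted by Benjamini-Hochberg over all 16475 probe sets, and an adjusted p under 0.05 made a call. Fold changes are on the log2 scale of the deposited values. The scripts were tested on simulated data. Arrays count no molecules, so their number limits the precision. Replicates are called biological in the labels, with no word on separate cultures, so the p-values refer to the spread of these arrays.

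The members, the 3 pathway lists and the markers were chosen with earlier results of these data known. The genes named were all 9 members, and from each list the called genes and up to 4 with the smallest p, with the genes most like each called member. The comparisons were repeated with the replicate number as a block and without the 40% of probe sets of lowest mean. They were also repeated with variances trended on intensity and after subtraction of each array's median. Comparisons of groups were repeated on their 6 arrays alone, in limma and by a one-way analysis. Each array was also left out in turn. The methods name a one-way analysis at a nominal p but not the groups it held, so it may differ from the one run here.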

Additional observations from a re-analysis of the deposited data

Results flagged for a closer look

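The test in limma of the difference between the RSL effects of inducible and parental cells passed for 4 of the genes described above. It passed for 1 of 9 members, 1 of 7 other family genes, 0 of 23 JAK-STAT genes and 1 of 24 STAT3 targets, and for Ier2. Over all probe sets, 0.662% passed. For Il6 the difference was 0.33 (adjusted p = 0.0304 in limma), with 0.33 in inducible cells and 0.00 in parental cells, where all 6 values were under the first quartile of their arrays and a response may not be readable. It was lost without any 1 of 8 of the 12 arrays. For Clcf1 the difference was -0.24 (adjusted p = 0.0423 in limma), with -0.16 in inducible cells and 0.08 in parental cells, and it was lost without any 1 of 11 arrays and with the replicate block (adjusted p = 0.0689). For Mcl1 it was -0.22 (adjusted p = 0.047 in limma), with -0.21 in inducible cells and 0.01 in parental cells, and it was lost without any 1 of the 12 arrays, with the replicate block (adjusted p = 0.0906) and after subtraction of each array's median (0.0774). Ier2, which the inducible clone carries on its construct, had a difference of -0.64 (adjusted p = 0.000262 in limma), with -0.47 in inducible cells and 0.17 in parental cells, and kept its call without each array in turn.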

How the results depend on the processing

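Of 217 values of the members under other settings than leaving out an array, 200 kept their direction and side of the threshold, 11 lost their call, 4 gained one and 2 changed sign. The 4 gains came from the one-way analysis at nominal p, the only setting not judged at an adjusted p. They were Il6st and Lifr for RSL in inducible cells, Il11 for RSL in parental cells, and Il6st between the cell lines. Both sign changes came from subtracting each array's median, in parental cells given RSL, where Il6 was at -0.00849 and Il6st at -0.00544. With the lowest 40% of probe sets left out, which removes Il6 and Lifr, the members called were 1 for RSL in inducible cells and 0 for the difference. Il6 and Lifr were also called between the cell lines, so the filter takes those calls away too. At nominal p, the one-way analysis of the 6 arrays of a comparison called 4 members for RSL in inducible cells and 1 in parental cells. After Benjamini-Hochberg adjustment, which the methods do not name, it called 0 for RSL in inducible cells (Il6 adjusted p = 0.209, Socs3 0.264) and 4 between the cell lines. Arrays with the same replicate number did not deviate together in every pair (correlations of -0.00672 to 0.214 between inducible RSL and inducible DMSO arrays). Arrays of these groups with unlike numbers spanned -0.33 to 0.317, so the correlations cannot decide whether replicates were paired. A replicate block left 2 members called for RSL in inducible cells, 0 in parental cells and 1 for the difference. Between the cell lines it left 6. It ended the calls between the cell lines of Il6ra (adjusted p = 0.0657), Jak3 (0.0591) and Adam10 (0.0672). The calls of the difference for Clcf1 (0.0689) and Mcl1 (0.0906) also ended with it. On the 6 arrays alone, limma did not call Clcf1 for RSL in inducible cells (adjusted p = 0.0645). Between the cell lines it then lost Lif (0.0544), Il6ra (0.0696), Jak2 (0.0542) and Jak3 (0.0581). With trended variances, Il6ra (0.0533) and Jak3 (0.0504) lost that call. Leaving out each array in turn gave 1 to 2 members for RSL in inducible cells, 0 to 0 in parental cells, 0 to 1 for the difference and 5 to 7 between the cell lines. Effects that changed sign in these omissions lay near 0: for RSL in inducible cells Il6ra (-0.00636 to 0.0651), in parental cells Il6 (-0.0333 to 0.0418), Lif (-0.00892 to 0.0581), Il6st (-0.0156 to 0.0151) and Stat3 (-0.00572 to 0.086), for the difference Il6ra (-0.0549 to 0.0165) and Lifr (-0.0115 to 0.0614), and between the cell lines Socs3 (-0.0637 to 0.0105). Over all probe sets, 418 were called for RSL in inducible cells (330 with the block, 204 to 457 in the omissions, 1913 and 1 in the one-way analysis at nominal and adjusted p), 5 in parental cells (1 to 12 in the omissions, 1226 and 0 in the one-way analysis at nominal and adjusted p) and 109 for the difference (56 to 144). Except for the filter, which leaves out probe sets, the causes were not tested. Il6 and Fgl2 in parental cells and Lifr in inducible cells lay under the first quartile of their arrays, which limits what can be read from their levels.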
